A study of Drosophila melanogaster with 9 samples.

Results

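DNA transposon copies annotated in the Drosophila melanogaster genome were followed across translational fractions of adult fly heads. A copy was taken where its annotated biotype was transposable element and its family, the name before the braces in its symbol, was among 20 listed DNA transposon families. This gave 3029 copies of the 23932 features in the gene table, out of 5576 copies of transposable elements of all kinds, and left 2547 copies of other elements, mostly retrotransposons. Copies were found for 19 of the listed families, and no copy carried the name of the P-element. The rule used biotypes and symbols and no measured value, but the families were listed with earlier results of these data known. Copies of hobo, S-element and S2-element carry the symbols H, S and S2, which were read as these families. The heads came from wild type Dahomey flies of 0 to 5 days that had received no treatment. Cytoplasmic lysate was separated on a sucrose gradient into polysomes and 80S monosomes. These are the parts of the gradient where RNAs bound by several ribosomes and by a single ribosome sediment. Whether the RNA of a copy in a fraction was bound by ribosomes was not tested. A share of the lysate was kept as total RNA, so that each fraction had 3 libraries and all 9 came from the same genotype. The copies are positions in the reference strain, and whether the Dahomey flies carry each of them was not tested.

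DNA transposons move as DNA, most of them by a cut-and-paste reaction in which a transposase binds inverted repeats at both ends of the element. Many copies in the fly genome are short remnants that have lost the transposase gene and are transcribed, where they are transcribed at all, as part of a gene that they lie in. INE-1 is a short and old element of very high copy number that is dense on the small, heterochromatin-like chromosome 4. The element 1360 is a relative of the P-element, hobo belongs to the hAT superfamily, and Bari1, Bari2, pogo, mariner2, Tc1, Tc1-2, HB, S-element and S2-element belong to the Tc1/mariner superfamily. FB elements are foldback elements made largely of long inverted repeats, NOF is a sequence found inside some of them, and the transib elements and hopper belong to the superfamily related to the RAG1 recombinase of vertebrates.

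The libraries held between 13555484 and 44096558 counts, the least deep being polysome replicate 1 and the deepest 80S monosome replicate 3. Reads that map to several places, or that lie over several features of the same strand, had been split between them, so that 46.3% of the nonzero values of the DNA transposon copies were not whole numbers, against 52.7% for all other features. Values are given below as counts per 1000000 counts of the library (CPM) after scaling by TMM, and differences as log2 fold changes from edgeR (quasi-likelihood test on the 9 libraries together). A feature was called where its p, adjusted by Benjamini-Hochberg over every feature tested, was under 0.01. CPM are not divided by length. The tissue was checked with marker genes. Summed over the 4 photoreceptor genes tested, CPM lay between 10196 and 11863 in polysomes, between 11691 and 13638 in 80S monosomes and between 15557 and 18280 in total RNA. The 5 germline genes in the table summed to between 6.46 and 16.05 CPM in polysomes, between 11.9 and 22.2 CPM in 80S monosomes and between 6.61 and 18.5 CPM in total RNA, and of these bgcn did not pass the filter on low counts. Germline genes were listed as ones that should be absent in heads, and they were not all absent. The gene osk had 4.60, 6.03 and 12.99 CPM in polysomes, 7.98, 9.36 and 14.8 CPM in 80S monosomes and 4.11, 6.72 and 12.7 CPM in total RNA. In each fraction osk rose from replicate 1 to replicate 3. The source of this germline signal was not tested. Of the photoreceptor genes, ninaE was called lower and trp higher in polysomes over total RNA. Of the 6 neuronal genes tested, 3 (Syt1, brp and VAChT) were called higher in polysomes over 80S monosomes, where 7.9% of all features were, and the 6 summed to between 6501 and 6671 CPM in polysomes, against 4300 to 4688 CPM in 80S monosomes. In polysomes over total RNA 3 of 4 glial genes were called lower (summed CPM 645 to 819 in polysomes, against 1189 to 1301 in total RNA), as were 2 of the 3 muscle genes tested, where 12.2% of all features were. The other glial gene, repo, stood at 0.37 and the other muscle gene, Mhc, at 0.20, and neither was called. In 80S monosomes over total RNA 1 glial gene, repo, was called higher and 2 lower, where 6.58% and 9.06% of all features were. The part of these marker differences in the results on transposon copies was not tested. The comparisons are between fractions of head lysate, so they do not measure how many cells of a type the heads held.

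The DNA transposon copies took a small share of the counts, which lay between 0.0993% and 0.118% in polysomes, between 0.0714% and 0.0861% in 80S monosomes and between 0.0829% and 0.0949% in total RNA. All 3 polysome libraries were above every 80S monosome library and every total RNA library. Copies of other elements took 1.67% to 2.69% of the counts in polysomes, 0.725% to 1.004% in 80S monosomes and 0.764% to 0.909% in total RNA. Summed over the 3029 copies, this was 1109 ± 128 CPM in polysomes, 804 ± 95.8 CPM in 80S monosomes and 885 ± 69.0 CPM in total RNA (SD, n = 3 each). Of the 3029 copies, 763 had no count in any library and 510 had at least 10 counts in at least 3 libraries and were tested. The third-highest count was 10 for the copies just inside this limit and 9.83 for those just outside, with 29 copies between 10 and 11 counts and 27 between 9 and 10. The limit was met in all 9 libraries by 225 copies, in the 3 polysome libraries only by 3 copies, in the 3 total RNA libraries only by 1 copy, and in the 3 80S monosome libraries only by 0 copies. The 2519 copies that did not pass it summed to 116 ± 18.0 CPM in polysomes, 67.2 ± 9.98 CPM in 80S monosomes and 78.7 ± 9.31 CPM in total RNA (SD, n = 3 each).

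The copies with counts lay mostly inside genes. Of the 510 copies tested, 324 lay in an intron of a gene on the same strand, 67 shared bases with an exon of a gene on the same strand, 34 lay in an intron and 9 in an exon of a gene on the opposite strand only, and 76 lay between genes. Among all 3029 copies 841 lay in a same-strand intron, 121 in a same-strand exon, 643 in an antisense intron, 83 in an antisense exon and 1341 between genes. Chromosome 4 held 155 of the copies tested and 445 of all copies. The median length was 428 bases for the copies tested and 190 bases for all copies. Summed over all copies in same-strand introns, polysomes held 578 ± 89.9 CPM, 80S monosomes 346 ± 53.5 CPM and total RNA 406 ± 49.0 CPM. Copies in same-strand exons summed to 269 ± 4.90 CPM in polysomes, 237 ± 20.5 CPM in 80S monosomes and 279 ± 12.7 CPM in total RNA. The intergenic copies summed to 160 ± 18.0 CPM in polysomes, 155 ± 19.0 CPM in 80S monosomes and 132 ± 6.42 CPM in total RNA, and the copies in antisense introns to 92.5 ± 19.9 CPM in polysomes, 58.1 ± 8.97 CPM in 80S monosomes and 60.9 ± 6.72 CPM in total RNA (SD, n = 3 each). The ratio of the means of polysomes over 80S monosomes was 1.67 for same-strand introns, 1.59 for antisense introns, 1.13 for same-strand exons and 1.03 for intergenic copies.

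To see how each family divided between polysomes and 80S monosomes, the counts of its copies were summed. In polysomes over 80S monosomes, 6 of the 19 families were higher and 1 was lower, where 5.64% of all features of that table were called higher and 2.38% lower. HB differed by a log2 fold change of 1.23 ± 0.16 (SE, adjusted p = 0.000401 in edgeR), with 96.3, 61.8 and 81.3 CPM in polysomes, against 38.2, 29.3 and 34.8 CPM in 80S monosomes. NOF, the sequence found in some foldback elements, had 3.74, 2.89 and 3.11 CPM in polysomes and 1.21, 1.48 and 1.56 CPM in 80S monosomes, a log2 fold change of 1.15 ± 0.20. In neither family did any 80S monosome library reach the lowest polysome library. The hAT element hobo had 19.5, 14.01 and 20.05 CPM in polysomes, against 10.5, 7.86 and 8.70 CPM in 80S monosomes, and its log2 fold change was 0.99 ± 0.19. A single copy, H{}84, held 46.5% of the counts of hobo, and 4 of its 59 copies passed the filter. For hopper the values were 8.38, 7.96 and 11.1 CPM in polysomes and 5.66, 4.20 and 5.80 CPM in 80S monosomes, with a log2 fold change of 0.82 ± 0.18. These groups also did not overlap.

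The families with the most copies had smaller differences. INE-1, with 2235 copies, had 769, 627 and 763 CPM in polysomes, against 549, 438 and 479 CPM in 80S monosomes, a log2 fold change of 0.56 ± 0.12 (SE, adjusted p = 0.00834 in edgeR). The 305 copies of 1360 had 108, 88.6 and 107 CPM in polysomes, against 74.8, 64.6 and 75.4 CPM in 80S monosomes, a log2 fold change of 0.50 ± 0.11 (adjusted p = 0.00958 in edgeR). In both families the groups did not overlap, but the adjusted p was close to the threshold. The only family that was lower in polysomes was transib3, with 16.3, 10.99 and 12.02 CPM in polysomes, against 28.0, 22.0 and 27.3 CPM in 80S monosomes, a log2 fold change of -0.996 ± 0.15 (adjusted p = 0.000991 in edgeR). It is described with its copies below. Of the families that missed the threshold, 5 had log2 fold changes of 0.62 or more. These were Bari2 (1.98 ± 0.47), transib4 (0.93 ± 0.29), transib1 (0.89 ± 0.32), Tc1-2 (0.89 ± 0.23) and transib2 (0.62 ± 0.29). The other 7 families had log2 fold changes between -0.16 and 0.38, among them S-element at 0.02 ± 0.14, pogo at 0.16 ± 0.13 and FB at 0.37 ± 0.18.

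**Figure D1:**
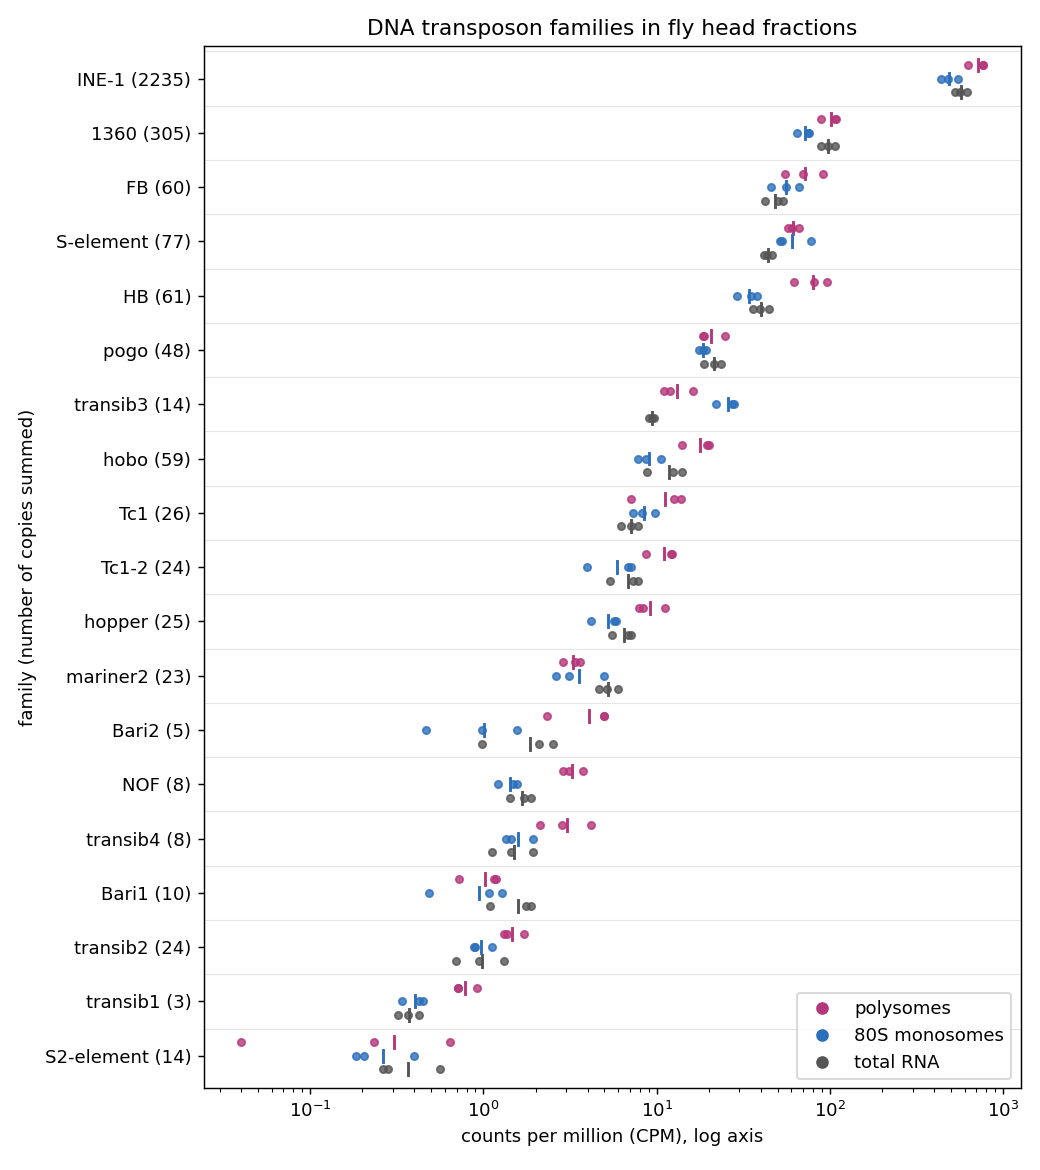
CPM (log axis) of each DNA transposon family, summed over its copies, in each library. Points are libraries (polysomes above, 80S monosomes in the middle, total RNA below) and short lines are means of 3. Transib3 is the family whose 80S monosome libraries, at 22.0 to 28.0 CPM, all lie above its polysome libraries, at 10.99 to 16.3 CPM.

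The number of families called depended on single libraries and on the pairing of replicates. Here and below, counts called in other fits are given without the share of all features called in the same fit. Whether a rise or fall in them is particular to DNA transposons was not tested. Replicate numbers paired the libraries, and with the number as a block 10 families were higher and 1 lower in polysomes over 80S monosomes, the 6 above joined by Bari2 (adjusted p = 1.87e-07), Tc1-2 (adjusted p = 2.17e-06), FB (adjusted p = 0.000749) and transib4 (adjusted p = 0.00190). With a library left out, the number of higher families fell to 1 without 80S monosome replicate 2 or polysome replicate 3, to 2 without 80S monosome replicate 3, polysome replicate 1 or total RNA replicate 3, and to 3 without total RNA replicate 2. NOF lost its call without 80S monosome replicate 2 (adjusted p = 0.0112) or polysome replicate 3 (adjusted p = 0.0125), and HB and transib3 kept theirs without any of the 9 libraries. When copies inside genes on the same strand were left out of the sums, HB stood at 0.95 ± 0.25 (adjusted p = 0.0246) and INE-1 at 0.38 ± 0.12 (adjusted p = 0.0499), so that neither was called, while transib3 was still lower.

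Against total RNA few families passed the test. In 80S monosomes over total RNA 1 of the 19 families was higher, where the share of all features was 5.87%, and 0 were lower, where it was 8.75%. At an unadjusted p under 0.05 in edgeR the number of lower families was 2, and DESeq2 called 1. The higher family was transib3, with 28.0, 22.0 and 27.3 CPM in 80S monosomes, against 9.63, 9.04 and 9.44 CPM in total RNA, a log2 fold change of 1.46 ± 0.15 (SE, adjusted p = 9.59e-05 in edgeR). The lowest adjusted p among the other families was that of 1360, at 0.0110, with 74.8, 64.6 and 75.4 CPM in 80S monosomes and 107, 88.8 and 96.9 CPM in total RNA. With the replicate block 2 families were higher and 3 lower. The S-element joined the higher families (log2 fold change 0.45, adjusted p = 0.000110), and 1360 (adjusted p = 9.69e-06), Bari2 (adjusted p = 0.00408) and hobo (adjusted p = 0.00574) were the lower ones.

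In polysomes over total RNA 2 families were higher, where the share of all features was 10.3%, and 0 were lower, where it was 11.5%. At an unadjusted p under 0.05 1 family was lower in edgeR, and DESeq2 called 0. HB, at the polysome values above, had 44.4, 35.9 and 39.6 CPM in total RNA, a log2 fold change of 0.99 ± 0.16 (SE, adjusted p = 0.000819 in edgeR). NOF had 1.88, 1.43 and 1.71 CPM in total RNA and a log2 fold change of 0.93 ± 0.20 (adjusted p = 0.00407 in edgeR). For NOF the call was lost without polysome replicate 1 (adjusted p = 0.0118) or 3 (adjusted p = 0.0141) and without total RNA replicate 2 (adjusted p = 0.0234) or 3 (adjusted p = 0.0169). Without polysome replicate 2 the number of higher families was 6. With the replicate block 12 families were higher and 1, mariner2, was lower. The comparisons share libraries, so their values stand side by side and are not independent.

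Tested singly, copies stood mostly higher in polysomes than in 80S monosomes. Of the 510 copies, 68 were called higher (13.3%), where 7.9% of all 13016 features tested were, and 3 were called lower, where 4.15% of all features were. The median log2 fold change of the copies was 0.53, against -0.08 over all features, and 384 of the 510 copies lay above 0. Copies of other elements stood further from the rest, with 372 of 916 higher (40.6%) and a median of 0.94. Within the 68 higher copies the log2 fold change ran from 0.64 to 4.48 with a median of 1.99, and their libraries did not overlap between the fractions. With the replicate block 126 copies were higher and 11 lower, a fit for which the share of all features is not given. The number of higher copies fell to 31 without polysome replicate 3, to 39 without 80S monosome replicate 2 and to 42 without 80S monosome replicate 3.

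The same difference is given here by the place of the copy. In same-strand introns 55 of 324 copies were higher (17.0%) and 0 lower in edgeR, where 5 were lower at an unadjusted p under 0.05 and DESeq2 called 0, with a median log2 fold change of 0.72 and quartiles of 0.20 and 1.502. In same-strand exons 7 of 67 were higher (10.4%) and 1 lower, with a median of 0.04. Of the 34 copies in antisense introns 2 were higher (5.88%), with a median of 0.44. Of the 76 intergenic copies 4 were higher (5.26%) and 2 lower (2.63%), with a median of 0.28. Among all features tested 7.9% were higher and 4.15% lower, so that in these places the shares of higher and lower copies were below those of all features. The 9 copies in antisense exons had a median of 0.36 and 0 calls in edgeR and in DESeq2, with 2 copies higher at an unadjusted p under 0.05. By length, the medians were 0.49 for 136 copies under 200 bases, 0.63 for 150 copies of 200 to under 500 bases, 0.56 for 90 copies of 500 to under 1000 bases and 0.45 for 134 longer copies. On chromosome 4, 28 of 155 copies were higher (18.1%), with a median of 0.59, against 40 of 355 (11.3%), with a median of 0.49, on the other chromosomes. These are descriptions of the copies that passed the filter, and differences between the places were not tested.

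**Figure D2:**
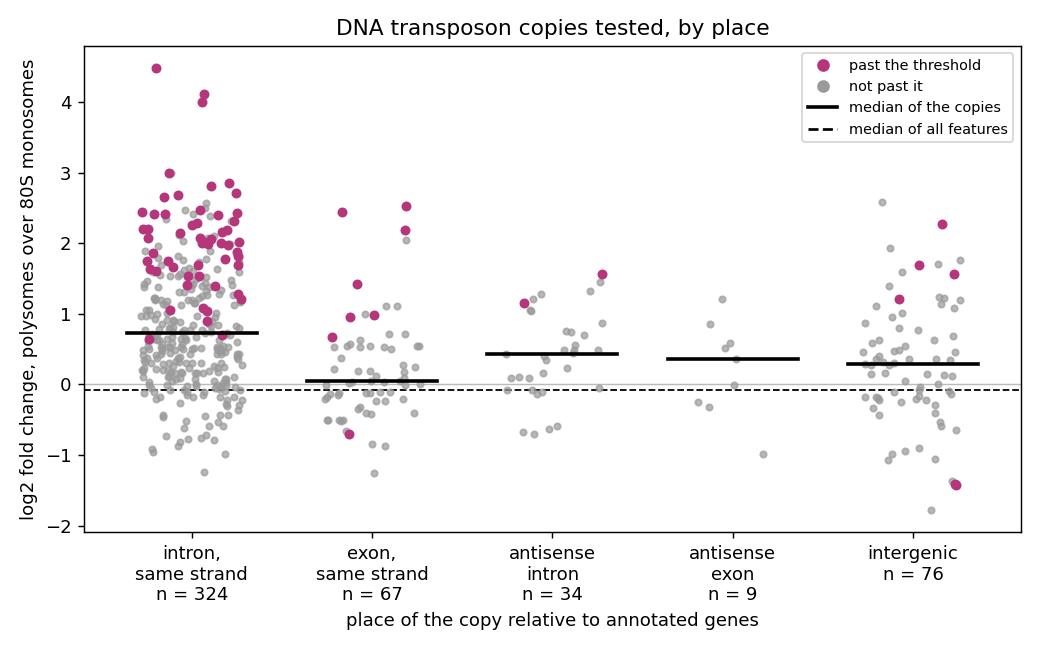
Log2 fold change in polysomes over 80S monosomes (vertical axis) of the 510 copies tested, by their place relative to annotated genes. Points are copies, coloured where adjusted p is under 0.01, thick lines are medians of the copies, and the dashed line is the median of all features tested (-0.08). Copies in same-strand introns have the highest median, 0.72.

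Host genes stood closer to 0 than the copies in their introns. For 321 copies in same-strand introns the host gene was tested too, in 174 genes, and the median log2 fold change in polysomes over 80S monosomes over these genes was 0.69 for their copies and 0.01 for the genes themselves. The copy lay above its host for 261 of the 321 copies. Taken per host gene, the median copy lay above the gene for 143 of the 174 genes. Over these copies Pearson's r between copy and host was 0.18, given as a description, since copies in 1 gene share their host value. For the 67 exon copies r was 0.77, with medians of 0.04 for the copies and -0.01 for the hosts. Exon copies share reads with the host by the way the counts were made. In the table counted by transcript, where a read is split between all isoforms that it overlaps, exon copies kept a median of 77.7% of their counts and 38 of the 67 kept less than 95%, while the median was 100% for copies in every other place. The medians in polysomes over total RNA were 0.51 for the intron copies and 0.01 for their hosts, and in 80S monosomes over total RNA they were -0.29 and -0.02, over the 321 copies. Most exon copies lay below their hosts in these comparisons, with medians of -0.13 for the copies and 0.14 for the hosts in polysomes over total RNA (r = 0.51, 21 of 67 copies above the host) and of -0.39 and 0.11 in 80S monosomes over total RNA (r = 0.33, 14 of 67 above).

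**Figure D3:**
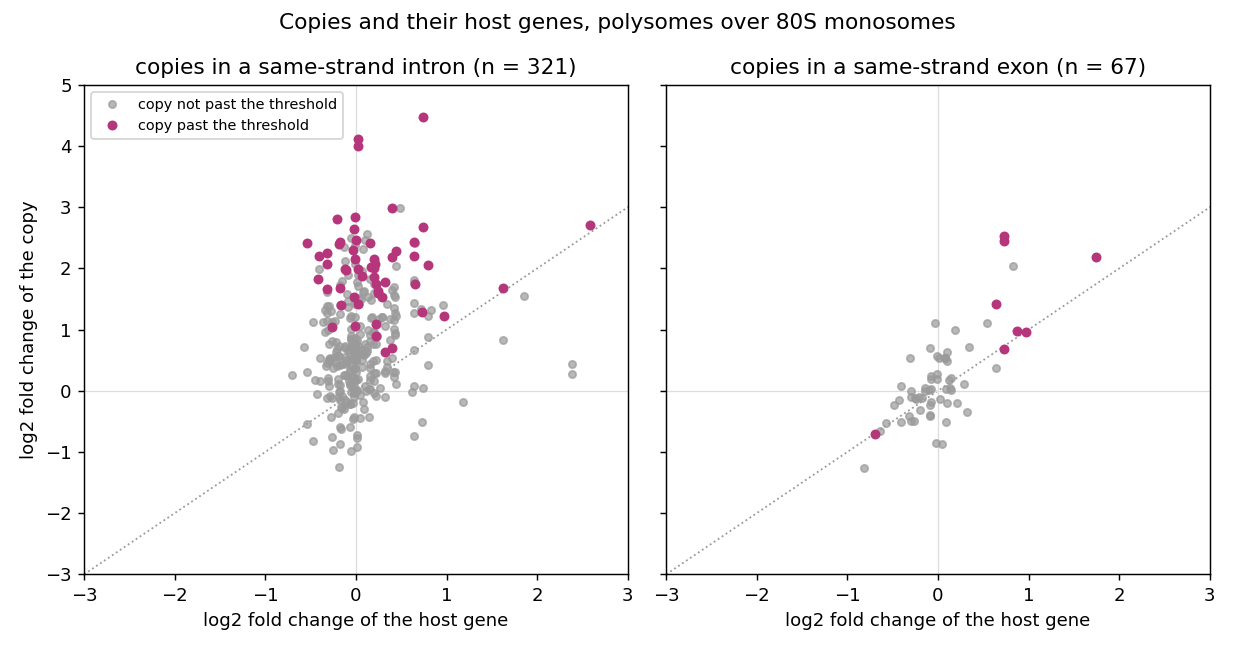
Log2 fold change in polysomes over 80S monosomes of each copy (vertical axis) against that of the gene that holds it on the same strand (horizontal axis), for 321 intron copies (left) and 67 exon copies (right). The dotted line marks equal values. In the left panel 261 copies lie above the line.

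Several genes held many copies, which allows copies in 1 transcription unit to be compared. The 15 genes with 5 or more tested copies on their strand were chosen for their number of copies after the values had been seen. Of their 92 copies 22 were called higher. Among all features tested the share was 7.9%, among all same-strand intron copies 17.0% and among all same-strand exon copies 10.4%. There were 3 such copies in each of 6 genes, 2 in 1 gene, 1 in each of 2 genes and 0 in 6 genes. In 7 genes the copies lay on both sides of 0. Sox102F, a Sox-family transcription factor gene on chromosome 4, held 5 copies with log2 fold changes in polysomes over 80S monosomes from 1.41 to 4.12, of which 3 were called higher, while the gene itself stood at 0.02. Cadps, a gene of vesicle release, held 8 copies from -0.04 to 2.15, 3 of them called, and itself stood at 0.20. In nrm, which encodes the cell adhesion protein neuromusculin, 5 copies ran from 0.53 to 2.99 with 3 called, and the gene stood at 0.40. The synaptic vesicle priming gene unc-13 was itself called higher, at 0.64, and held 8 copies from 0.07 to 2.43 with 3 called. The cohesin loader gene Nipped-B stood at -0.32 and its 8 copies ran from 0.45 to 2.26, all above the gene, with 3 called. Copies in gus and in AGO3, which encodes an Argonaute protein of the piRNA pathway, lay on both sides of 0 and none of these was called in this comparison, although with the replicate block INE-1{}5814 in AGO3 was called lower (-0.75 ± 0.21, adjusted p = 0.00881 in edgeR). Copies in 1 gene share that gene and are not replicates.

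**Figure D4:**
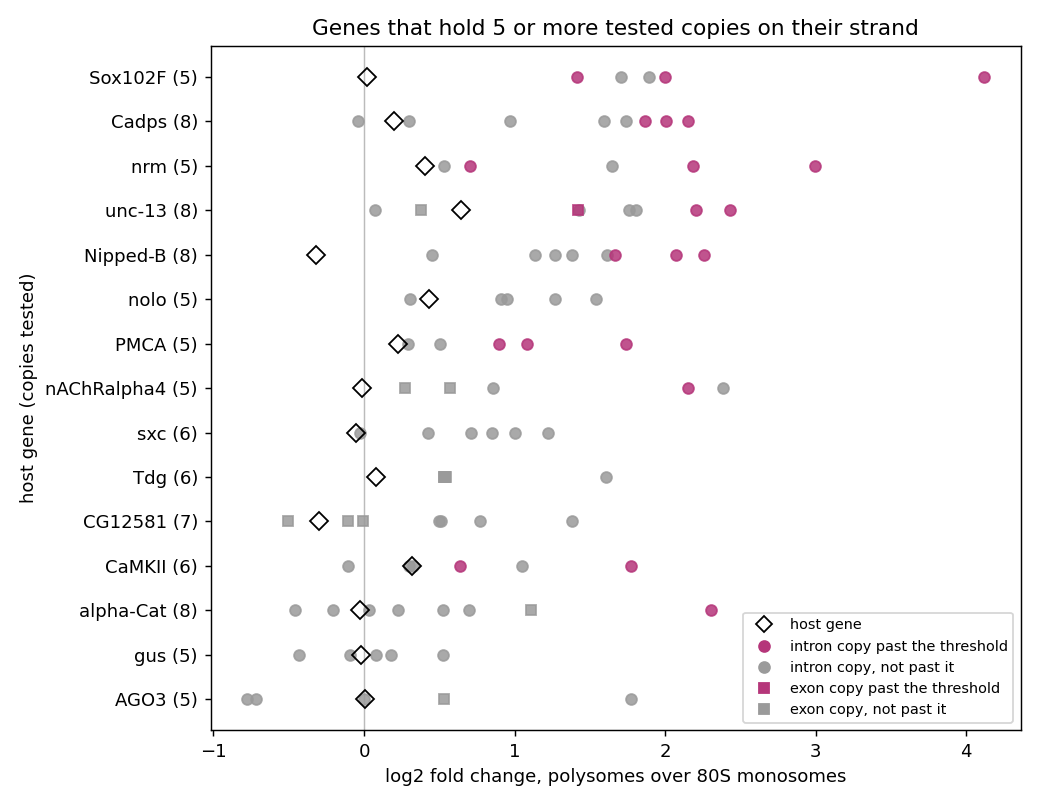
Log2 fold change in polysomes over 80S monosomes (horizontal axis) of the copies in the 15 genes that hold 5 or more tested copies on their strand, with the gene itself as an open diamond. Circles are intron copies, squares are exon copies, and colour marks adjusted p under 0.01. In Sox102F the gene stands at 0.02 and its 5 copies between 1.41 and 4.12.

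The 10 copies of highest mean CPM over the 9 libraries lay mostly in genes. Of these 10 copies, 6 share bases with an exon of a gene on the same strand. FB{}1604 (3L:22743571-22751730, plus strand, CG7369) had 30.2, 26.7 and 28.6 CPM in polysomes, against 32.8, 27.6 and 25.7 CPM in 80S monosomes and 22.6, 21.0 and 22.4 CPM in total RNA. S{}1208 (3R:4714635-4716016, plus strand, between genes) had 24.98, 26.4 and 24.8 CPM in polysomes, against 30.4, 24.2 and 23.9 CPM in 80S monosomes and 21.9, 21.3 and 21.2 CPM in total RNA. In both copies the ribosomal fractions overlapped each other and lay above total RNA, but neither difference from total RNA passed the threshold. With the replicate block FB{}1604 was called higher over total RNA in 80S monosomes (adjusted p = 0.000900) and in polysomes (adjusted p = 0.000989). FB{}1604 made up 46.6% of the counts of FB and S{}1208 45.1% of those of the S-element, so that these sums are largely values of a single place. Both had values that were not whole in all 9 libraries. INE-1{}6126 (2L:22154099-22156468, plus strand) lies in an exon of CG42748 and kept 20.4% of its counts in the transcript table. It had 25.6, 20.6 and 22.2 CPM in polysomes, against 32.6, 23.1 and 22.2 CPM in 80S monosomes, and its log2 fold change of -0.19 ± 0.15 stood near that of CG42748, -0.08.

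Per length, the highest of these copies were 2 INE-1 copies on chromosome 4, at 37.0 CPM per kb for INE-1{}3354 and 36.0 CPM per kb for INE-1{}3385, against 17.6 CPM per kb for S{}1208 and 3.23 CPM per kb for FB{}1604. INE-1{}3354 (4:1010988-1011506, minus strand) lies in an exon of PlexA, a semaphorin receptor gene, and its libraries overlapped between all fractions. INE-1{}3385 (4:1042174-1042714, minus strand) lies in an intron of CaMKII, the calcium/calmodulin-dependent protein kinase II gene. It had 17.0, 22.2 and 20.9 CPM in polysomes, against 12.4, 14.6 and 11.8 CPM in 80S monosomes and 25.5, 26.1 and 24.7 CPM in total RNA, so that the fractions did not overlap. The copy stood at 0.64 ± 0.12 in polysomes over 80S monosomes (adjusted p = 0.00306 in edgeR) and -0.97 ± 0.12 in 80S monosomes over total RNA (adjusted p = 0.000292 in edgeR). CaMKII itself stood at 0.32 and -0.71 in these comparisons, the second of which was called. The call in polysomes over 80S monosomes was lost for this copy without 80S monosome replicate 3 (adjusted p = 0.0167), polysome replicate 2 (adjusted p = 0.0116) or polysome replicate 3 (adjusted p = 0.0171).

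Among the remaining copies of high CPM, HB{}4413 (X:22882039-22883543, plus strand) lies in an exon of CG42346 and had 16.7, 16.4 and 16.9 CPM in polysomes, against 9.12, 8.03 and 8.68 CPM in 80S monosomes. Its log2 fold change of 0.96 ± 0.10 (adjusted p = 5.30e-05 in edgeR) was close to the 0.98 of CG42346, and the copy kept 66.7% of its counts in the transcript table. INE-1{}4170 (4:111786-112228, plus strand) lies in an exon of pan, the TCF transcription factor gene of Wingless signalling, and stood at 0.68 ± 0.13 in polysomes over 80S monosomes (adjusted p = 0.00420 in edgeR), where pan stood at 0.73. Its call was lost without 80S monosome replicate 2 (adjusted p = 0.0212) or 3 (adjusted p = 0.0227) or polysome replicate 3 (adjusted p = 0.0219). INE-1{}6210 (2R:17451544-17452021, plus strand) lies antisense to an annotated intron and was called higher in polysomes, with 19.8, 16.2 and 19.4 CPM, against 8.06, 9.29 and 7.38 CPM in 80S monosomes and 10.998, 9.33 and 9.12 CPM in total RNA. It stood at 1.16 ± 0.13 over 80S monosomes (adjusted p = 0.000108 in edgeR) and 0.91 ± 0.13 over total RNA (adjusted p = 0.000495 in edgeR). In 1360{}154 (X:18131319-18132003, minus strand), in an exon of the E3 ubiquitin ligase gene ari-1, both ribosomal fractions were low, with 5.45, 8.39 and 7.89 CPM in polysomes and 8.41, 11.9 and 8.96 CPM in 80S monosomes, against 18.1, 16.9 and 17.1 CPM in total RNA. The log2 fold change in polysomes over total RNA was -1.24 ± 0.17 for this copy (adjusted p = 0.000363 in edgeR) and -0.26 for ari-1.

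HB{}1605 (3R:31887801-31897206, minus strand) lies in an intron of heph, which encodes a polypyrimidine tract-binding protein, and at 9406 bases is the longest of the intron copies named here. It had 30.4, 15.3 and 21.0 CPM in polysomes, against 6.28, 6.38 and 6.89 CPM in 80S monosomes and 9.15, 5.15 and 6.57 CPM in total RNA. All polysome libraries lay above all others. The log2 fold change was 1.75 ± 0.25 in polysomes over 80S monosomes (adjusted p = 0.000499 in edgeR) and 1.66 ± 0.25 in polysomes over total RNA (adjusted p = 0.000570 in edgeR), where heph was also called higher at 0.65 and 0.66. All 9 values of this copy were not whole.

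The largest differences in polysomes over 80S monosomes belonged to intron copies of 104 to 832 bases. INE-1{}3880 (X:22983905-22984008, minus strand), in an intron of stnB, a gene of synaptic vesicle endocytosis, had 8, 17 and 9 counts in polysomes, against 0, 1 and 1 counts in 80S monosomes and 12, 12 and 9 counts in total RNA. From 34 and 2 counts the ratio of polysomes over 80S monosomes was 26.8, with an exact 95% interval of 6.86 to 229.8 that covers counting error only. INE-1{}2081 (4:809217-809377, minus strand), in an intron of Sox102F, had 23, 20 and 31 counts in polysomes, against 0, 0 and 7 counts in 80S monosomes, and a log2 fold change of 4.12 ± 0.76 (adjusted p = 0.00268 in edgeR, 0.0127 without polysome replicate 3). HB{}484 (2L:21252366-21253197, plus strand) lies in an intron of Hr39, a nuclear receptor gene, and had 2.09, 1.22 and 2.02 CPM in polysomes, against 0.104, 0.123 and 0.0892 CPM in 80S monosomes and 0.835, 0.406 and 0.774 CPM in total RNA. Its log2 fold change was 3.99 ± 0.43 in polysomes over 80S monosomes (adjusted p = 6.48e-05 in edgeR), and Hr39 itself stood at 0.02.

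INE-1{}3220 (3L:23023576-23023803, plus strand), in an intron of nrm, had 0.696, 0.446 and 0.981 CPM in polysomes, against 0.00, 0.196 and 0.0223 CPM in 80S monosomes and 1.13, 1.16 and 0.979 CPM in total RNA. It stood at 2.99 ± 0.65 in polysomes over 80S monosomes, a call that was lost with 80S monosome replicate 1 or 3, polysome replicate 1 or 3, or total RNA replicate 1 or 3 left out (adjusted p from 0.0115 to 0.0382). In 80S monosomes over total RNA its log2 fold change was -3.62 ± 0.60 (adjusted p = 0.00149 in edgeR). INE-1{}3166 (2R:4559643-4560084, plus strand), in an intron of the Ste20-like kinase gene Stlk, had 2.55, 2.12 and 3.59 CPM in polysomes, against 0.208, 0.245 and 0.602 CPM in 80S monosomes and 1.4997, 1.11 and 1.45 CPM in total RNA. For each of these 5 copies the 80S monosome libraries lay below both the polysome and the total RNA libraries.

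In 80S monosomes over total RNA 7 of the 510 copies were higher (1.37%), where 6.58% of all features were, and 36 were lower, where 9.06% of all features were. The median log2 fold change was -0.23 for the copies and -0.02 for all features. Of the 36 lower copies 33 lay in genes on their strand, in 24 genes. With the replicate block 21 copies were higher and 75 lower. Without a single library the number of lower copies fell to 12 without total RNA replicate 1, to 15 and 19 without total RNA replicates 3 and 2, and to 20 and 21 without 80S monosome replicates 2 and 3. The number of higher copies fell to 2 without total RNA replicate 2, to 3 without 80S monosome replicate 1, polysome replicate 3 or total RNA replicate 3, and to 4 without 80S monosome replicate 3. Of the 5 lower copies of largest difference, INE-1{}3880, HB{}484 and INE-1{}3220 are described above, and INE-1{}4168 and 1360{}5480 join them. The call of HB{}484 was lost without 80S monosome replicate 3 (adjusted p = 0.0109). INE-1{}4168 (4:100389-100643, plus strand), in an exon of pan, had 0.364, 0.331 and 0.390 CPM in 80S monosomes, against 2.53, 2.27 and 2.78 CPM in total RNA, while polysomes held 1.86, 1.95 and 2.64 CPM. Its log2 fold change was -2.75 ± 0.24 in 80S monosomes over total RNA (adjusted p = 3.10e-05 in edgeR) and 2.53 ± 0.25 in polysomes over 80S monosomes, where pan stood at -0.22 and 0.73. 1360{}5480 (4:1194732-1194876, minus strand), in an intron of the phosphatidylinositol phosphate kinase gene PIP4K, had 0.273, 0.0736 and 0.178 CPM in 80S monosomes, against 0.7999, 0.650 and 1.09 CPM in total RNA. Its call was lost without 80S monosome replicate 2 or 3 or total RNA replicate 1 or 3 (adjusted p from 0.0126 to 0.0194).

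Of the 5 higher copies of largest difference in 80S monosomes over total RNA, 2 were transib3 copies and 3 were intron copies of INE-1. INE-1{}4388 (2R:4748502-4748577, plus strand), in an intron of the RhoGAP gene conu, had 0.936, 0.641 and 0.691 CPM in 80S monosomes, against 0.333, 0.186 and 0.0948 CPM in total RNA, and polysomes held 0.812, 0.595 and 0.768 CPM. It stood at 1.84 ± 0.41 (adjusted p = 0.00669 in edgeR), and the call was lost without any of 80S monosome replicates 1, 2 and 3, polysome replicate 3 and total RNA replicates 2 and 3 (adjusted p from 0.0113 to 0.0344). INE-1{}5814 (3L:23589012-23589090, plus strand), in an intron of AGO3, had 2.83, 1.90 and 3.06 CPM in 80S monosomes, against 1.14, 0.735 and 1.28 CPM in total RNA. Its call, at 1.30 ± 0.28, was lost without 80S monosome replicate 1 or 3, polysome replicate 3 or any total RNA replicate (adjusted p from 0.01004 to 0.0281). INE-1{}2831 (2R:4924644-4929315, plus strand), which overlaps 1 other annotated element and lies in an intron of the ionotropic receptor gene Ir41a, had 2.35, 2.84 and 3.12 CPM in 80S monosomes, against 1.28, 1.16 and 1.39 CPM in total RNA. It stood at 1.14 ± 0.19 (adjusted p = 0.00166 in edgeR, 0.0122 without total RNA replicate 2). At 4672 bases it is far longer than the median INE-1 copy of 146 bases, and all 9 of its values were not whole. Its mean was 1.89 CPM, while Ir41a itself had a mean of 0.167 CPM and was not tested.

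In polysomes over total RNA 24 copies were higher (4.71%), where 10.6% of all features were, and 14 were lower, where 12.2% of all features were. The median log2 fold change was 0.42 for the copies and -0.05 for all features. With the replicate block 80 copies were higher and 20 lower. The number of higher copies was 37 without polysome replicate 2 and fell to 9 and 6 without polysome replicates 1 and 3 and to 5 and 6 without total RNA replicates 2 and 3. The number of lower copies lay between 6 and 15 with 1 library left out, and was 8 without polysome replicate 1 or 3, 7 without total RNA replicate 1 or 3 and 6 without total RNA replicate 2. The higher copies of largest difference, besides HB{}1605 and INE-1{}4388 (1.77 ± 0.43, lost without any library but 80S monosome replicate 1 and total RNA replicate 1, adjusted p from 0.0102 to 0.0326), were 1360{}17 (X:1514190-1514452, plus strand) in an intron of the sleep gene inc at 1.99 ± 0.44, INE-1{}4461 (3R:4626264-4626320, plus strand) in an intron of the serotonin receptor gene 5-HT2A at 1.79 ± 0.45, and INE-1{}5088 (2R:5678594-5679027, minus strand) in an intron of scaf at 1.62 ± 0.40. INE-1{}5088 had 1.005, 0.694 and 0.469 CPM in polysomes, against 0.104, 0.0982 and 0.0892 CPM in 80S monosomes and 0.200, 0.186 and 0.284 CPM in total RNA. Its counts were 13, 21 and 11 in polysomes, 2, 4 and 4 in 80S monosomes and 6, 6 and 9 in total RNA. This copy therefore met the filter on low counts through the polysome libraries only, the fraction in which it was called higher. With no filter on low counts its call over total RNA was lost (adjusted p = 0.0159 in edgeR). Each of these 3 calls was lost with some single library left out, at adjusted p up to 0.0209 for 1360{}17 (polysome replicates 1 and 3, total RNA replicates 2 and 3), 0.0451 for INE-1{}4461 (80S monosome replicate 3, polysome replicates 1 and 3, each total RNA replicate) and 0.0346 for INE-1{}5088 (80S monosome replicates 2 and 3, each total RNA replicate).

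Of the 5 lower copies of largest difference in polysomes over total RNA, 1 lay in a same-strand intron. The first, 1360{}4546 (2R:4696531-4697592, plus strand), antisense to an annotated intron, had 0.673, 0.399 and 0.313 CPM in polysomes and 0.234, 0.313 and 0.354 CPM in 80S monosomes, against 1.84, 1.43 and 1.59 CPM in total RNA. Its log2 fold change in polysomes over total RNA was -1.89 ± 0.33 (adjusted p = 0.00140 in edgeR). INE-1{}5275 (X:9928138-9928201, minus strand), in an exon of Idgf4, an imaginal disc growth factor gene, had 0.966, 1.26 and 1.11 CPM in polysomes and 1.01, 1.35 and 0.870 CPM in 80S monosomes, against 3.63, 4.41 and 4.26 CPM in total RNA. Both ribosomal fractions of these copies were below total RNA and overlapped each other. The intergenic copy mariner2{}1523 (4:647526-648281, plus strand), which held 69.1% of the counts of its family, had 0.928, 1.39 and 1.198 CPM in polysomes, against 1.46, 3.68 and 2.30 CPM in 80S monosomes and 4.22, 4.98 and 3.63 CPM in total RNA, and stood at -1.82 ± 0.31 in polysomes over total RNA (adjusted p = 0.00119 in edgeR). INE-1{}6118 (4:582813-582889, minus strand), between genes, had 1, 7 and 3 counts in polysomes, against 13, 23 and 22 counts in 80S monosomes and 16, 15 and 19 counts in total RNA. For pogo{}Kmn1[pogo108] (X:11571507-11571692, plus strand), in an intron of CG11699, the values were 0.956, 0.422 and 0.386 CPM in polysomes, against 1.76, 1.41 and 1.63 CPM in total RNA. The last pair of calls was also lost without polysome replicate 3 (adjusted p = 0.0388 for INE-1{}6118 and 0.0455 for pogo{}Kmn1[pogo108]), and in further fits with 1 library left out without polysome replicate 1, each total RNA replicate and 80S monosome replicates 2 and 3 for INE-1{}6118, and without polysome replicate 2, 80S monosome replicate 2 and each total RNA replicate for pogo{}Kmn1[pogo108]. The call of INE-1{}6118 was lost in DESeq2 too (adjusted p = 0.0154). In edgeR it was lost with no filter on low counts (adjusted p = 0.0126) and in the fit on only the 6 libraries compared (adjusted p = 0.0138). Relative log expression factors and scaling on nuclear protein-coding genes ended both calls (adjusted p from 0.01096 to 0.0140 in edgeR).

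The 80S monosome side was led by transib3. Its 14 copies held 4390 counts over the 9 libraries, of which 87.1% came from copies between genes and 50.8% from transib3{}RR41953 alone (2R:3265730-3270434, plus strand, 4705 bases). That copy had 6.21, 4.94 and 5.11 CPM in polysomes, against 15.3, 12.7 and 15.2 CPM in 80S monosomes and 4.16, 4.14 and 4.12 CPM in total RNA. All 80S monosome libraries lay above all others. The log2 fold change was -1.42 ± 0.13 in polysomes over 80S monosomes (adjusted p = 2.61e-05 in edgeR) and 1.79 ± 0.13 in 80S monosomes over total RNA (adjusted p = 8.57e-06 in edgeR). The intergenic transib3{}2951 (3L:23758863-23765137, plus strand, 6275 bases, overlapped by 2 other annotated elements) had 4.34, 2.73 and 3.16 CPM in polysomes, against 9.68, 7.32 and 9.54 CPM in 80S monosomes and 3.08, 2.48 and 3.21 CPM in total RNA, with log2 fold changes of -1.41 ± 0.20 and 1.59 ± 0.19 in the same comparisons. Polysomes and total RNA overlapped for transib3{}2951 and were close for transib3{}RR41953. Both copies had values that were not whole in all 9 libraries, so that they include reads split between places, and the pair cannot be taken as independent.

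These calls of transib3 held in every fit that was run. Over all alternatives, the adjusted p of transib3 was at most 0.00914 in polysomes over 80S monosomes and 0.00110 in 80S monosomes over total RNA. None of the other 3 transib3 copies tested was called in these comparisons. transib3{}1538, in an exon of unc-13, had 3.40, 2.05 and 2.15 CPM in polysomes, against 2.63, 1.29 and 1.93 CPM in 80S monosomes, and transib3{}2950 and transib3{}2949 stood at log2 fold changes of 0.16 (adjusted p = 0.827 in edgeR) and -0.00 (adjusted p = 0.998 in edgeR). The third copy called lower in polysomes over 80S monosomes was INE-1{}5214 (3L:19684180-19684685, minus strand), in an exon of CG8765. It had 4.52, 4.73 and 5.08 CPM in polysomes, against 8.88, 8.12 and 6.52 CPM in 80S monosomes, at -0.70 ± 0.15, where CG8765 stood at -0.70. It kept 50.0% of its counts in the transcript table, and its call was lost with any library but 80S monosome replicate 3 left out (adjusted p from 0.0125 to 0.0275). Relative log expression factors (adjusted p = 0.0112 in edgeR) and scaling on nuclear protein-coding genes (adjusted p = 0.0115 in edgeR) also ended this call. So did the fit on only the 6 libraries compared (adjusted p = 0.0295 in edgeR). The pattern was the opposite in NOF{}1599 (2R:6324061-6340522, minus strand, between genes, overlapped by 1 other annotated element), named because it holds 76.5% of the counts of NOF. It had 3.25, 2.42 and 2.18 CPM in polysomes, against 0.983, 1.17 and 1.12 CPM in 80S monosomes and 1.30, 1.11 and 1.23 CPM in total RNA, and a log2 fold change of 1.21 in polysomes over 80S monosomes (adjusted p = 0.00239 in edgeR).

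**Figure D5:**
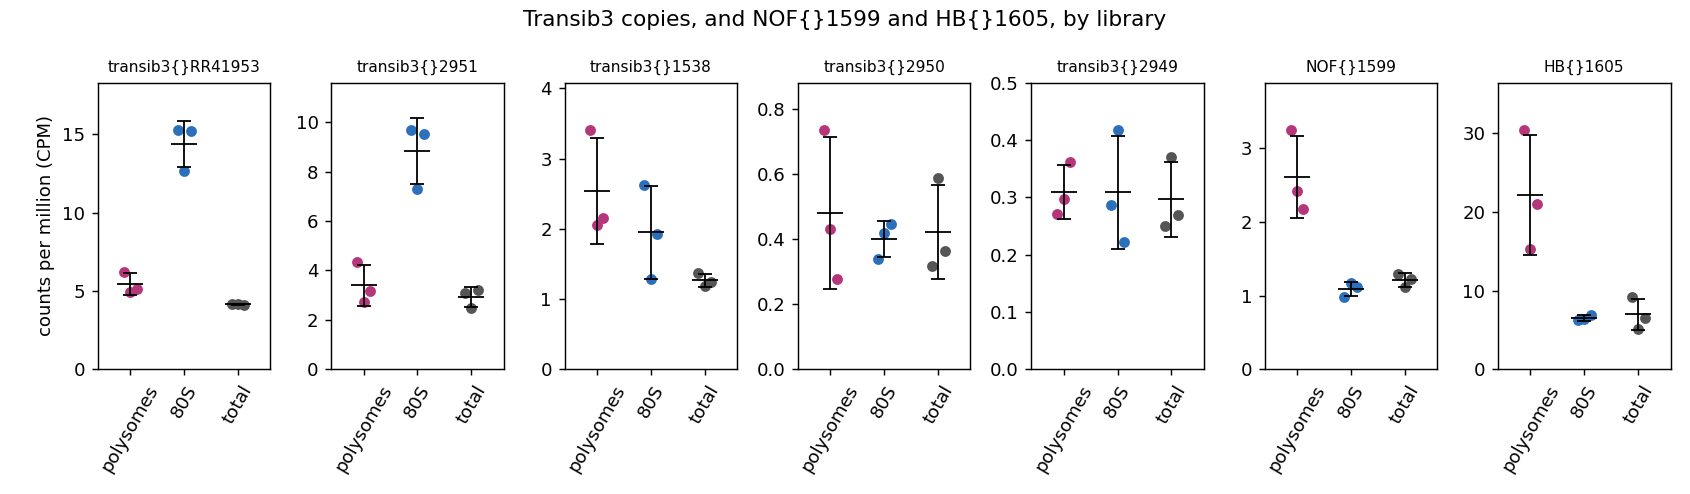
CPM (linear axes that start at 0 and differ between panels) of the 5 transib3 copies tested, of NOF{}1599 and of HB{}1605 in each library. Points are libraries, horizontal lines and bars are means ± SD of 3. In transib3{}RR41953 the 80S monosome libraries lie between 12.7 and 15.3 CPM and the polysome libraries between 4.94 and 6.21 CPM.

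Genes of transposon silencing were read beside the copies. Small RNAs guide the repression of transposons, through the siRNA branch with Dcr-2 and AGO2 in somatic cells and through the piRNA branch mainly in the germline, and the list also held proteins that bind the inverted repeats of the P-element. Of 43 genes listed 41 were tested. In polysomes over 80S monosomes 1 was higher and 3 lower (7.9% and 4.15% of all features), with a median of -0.33. Over total RNA, in 80S monosomes 3 were higher and 2 lower (6.58% and 9.06% of all features), with a median of 0.22, and in polysomes over total RNA 0 were higher and 2 lower (10.6% and 12.2% of all features), with a median of -0.28. For the last of these comparisons 5 were higher at an unadjusted p under 0.05 in edgeR, and DESeq2 called 4. The 5 of highest mean CPM were tud, Xrp1, AGO2, mino and Dcr-2. The Tudor protein gene tud had 1419, 874 and 985 CPM in polysomes, 1961, 1566 and 1581 CPM in 80S monosomes and 779, 625 and 665 CPM in total RNA, and was called higher in 80S monosomes over total RNA at 1.30 ± 0.18 (adjusted p = 0.000515 in edgeR). Dcr-2, the Dicer that makes siRNAs, had 109.1, 116 and 123 CPM in 80S monosomes, against 74.2, 82.4 and 84.7 CPM in total RNA, a log2 fold change of 0.53 ± 0.09 (adjusted p = 0.00141 in edgeR). AGO2, the Argonaute that carries siRNAs, stood at -0.19 and 0.20 in polysomes over 80S monosomes and 80S monosomes over total RNA, and was not called, nor were Xrp1, a transcription factor of the repeat-binding complex, and mino, a mitochondrial acyltransferase of the piRNA pathway. The 3 lower genes in polysomes over 80S monosomes were the piRNA genes piwi at -2.18 ± 0.47 (SE), Panx at -0.61 ± 0.12 and csul at -0.83 ± 0.13, and the higher one was Irbp18 at 0.74 ± 0.17. These 4 were named after their values had been seen. The lowest in CPM was piwi, with 0.696, 0.794 and 1.79 CPM in polysomes, against 3.48, 3.90 and 7.62 CPM in 80S monosomes. In both fractions piwi rose from replicate 1 to replicate 3.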

How the data were processed

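RNA was taken from polysomes, 80S monosomes and total cytoplasmic lysate of heads (3 replicates each), depleted of rRNA and sequenced with a stranded kit. The authors used Trimmomatic 0.33 for trimming, STAR 2.7.10a at its default settings for mapping to BDGP6, and featureCounts 2.0.1 for the deposited estimated counts for genes and for transcripts. These are not normalized, and reads over several places or several same-strand features are split evenly in them. A copy with recent duplicates can therefore gain counts from them, and the split cannot be undone.

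Symbols, biotypes, coordinates, lengths and places came from a newer Ensembl annotation of the same assembly (BDGP6.54), which did not match 81 features and holds 207 copies of the listed families that are not in the table. A copy was placed in an exon where it shared any base with an exon. The members, families and gene lists were chosen with earlier results of these data known.

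The deposited estimated counts were rounded, filtered (10 counts in 3 libraries), scaled by TMM and fitted in R 4.3.3 with edgeR 4.0.16 (robust quasi-likelihood, 9 libraries, no block), for 13016 features, or 11726 with all element copies summed per family. The Benjamini-Hochberg threshold was 0.01. Standard errors are the log2 fold change over the root of F. The fit was tested on simulated data. The named copies are the 10 of highest mean CPM and, for each comparison and direction, the 5 of largest difference past the threshold without overlap between libraries. Of the silencing list, the 5 genes of highest mean CPM are named. Same-numbered libraries deviated together in all 9 pairs of fractions (correlation 0.19 to 0.41), so the numbers pair the libraries. The labels do not say whether replicates came from separate flies, so p-values measure the spread between these samples. Alternatives were DESeq2 1.42.0 with a local fit, other scalings and filters, the block, fewer libraries, the transcript table and, for families, sums without exon copies or, added after seeing the data, without copies in same-strand genes.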

Additional observations from a re-analysis of the deposited data

How the results depend on the processing

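Most results kept their direction and their side of the threshold under the alternatives. Of the single values that had been called, 699 were unchanged in this sense and 142 lost the call, and 0 turned round. Of those not called, 1071 were unchanged, 60 gained a call and 50 turned round. Among the calls lost in the fit on only the 6 libraries compared were calls of INE-1{}3385, INE-1{}4170, INE-1{}4388, INE-1{}5088 and HB{}484 (adjusted p from 0.01009 to 0.0131 in edgeR). The cause of these changes was not tested, and the share of all features called in each alternative is not given.

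Of the copies, in polysomes over 80S monosomes DESeq2 called 107 higher and 5 lower, the replicate block 126 and 11, and counting by transcript gave 5 lower. In 80S monosomes over total RNA DESeq2 called 17 higher and 63 lower, the block 21 and 75, and counting by transcript gave 57 lower. In polysomes over total RNA DESeq2 called 57 higher and the block 80, and scaling on nuclear protein-coding genes gave 9 lower. With 1 library left out, counts were 31 to 73 higher and 2 to 3 lower in polysomes over 80S monosomes, 2 to 9 and 12 to 42 in 80S monosomes over total RNA, and 5 to 37 and 6 to 15 in polysomes over total RNA.

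Of the families, in polysomes over 80S monosomes the replicate block called 10 higher and a fit on only the 6 libraries compared 2. In 80S monosomes over total RNA DESeq2 and the block called 2 higher each, and DESeq2, no filter on low counts and the transcript table called 1 lower each and the block 3. In polysomes over total RNA DESeq2 called 11 higher and the block 12, and the block and the fit on 6 libraries called 1 lower each. With 1 library left out, 1 to 7 families were higher in polysomes over 80S monosomes, 0 to 1 lower in 80S monosomes over total RNA, and 1 to 6 higher and 0 to 1 lower in polysomes over total RNA. DESeq2 called 9 families higher in polysomes over 80S monosomes.

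None of the values that turned round had been called. With copies in same-strand genes left out, HB stood at 0.14, INE-1 at 0.0048 and transib2 at 0.0057 in 80S monosomes over total RNA, and pogo at 0.27 in polysomes over total RNA, where without exon copies it stood at 0.026. In the transcript table transib4 stood at -0.022 in 80S monosomes over total RNA. In polysomes over 80S monosomes FB{}1604 stood at 0.039 in DESeq2, 0.038 with relative log expression factors, 0.054 with scaling on nuclear protein-coding genes, 0.044 in the fit on 6 libraries and 0.065 in the transcript table, and S{}1208 at 0.016, 0.011, 0.026, 0.017 and 0.042 in the same order. INE-1{}6126 stood at 0.0090 in the transcript table. In polysomes over total RNA INE-1{}3354 stood at 0.040 in DESeq2, 0.037 with relative log expression factors and 0.070 with scaling on nuclear protein-coding genes. The ranges with 1 library left out were, in polysomes over 80S monosomes, -0.17 to 0.33 for Bari1, -0.081 to 0.23 for S-element, -0.31 to 0.16 for mariner2, -0.083 to 0.092 for FB{}1604, -0.10 to 0.080 for S{}1208 and -0.29 to 0.0019 for INE-1{}6126. In 80S monosomes over total RNA they were -0.38 to 0.029 for Tc1-2, -0.25 to 0.23 for transib2, -0.11 to 0.30 for transib4 and -0.30 to 0.18 for HB{}1605. For polysomes over total RNA they were -0.0091 to 0.15 for 1360, -0.35 to 0.26 for S2-element, -0.14 to 0.054 for pogo and -0.10 to 0.10 for INE-1{}3354.

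Depth limits copies of low count most, and 2519 copies were not tested. Where a copy lies in a gene or has close relatives, its counts include reads that could belong to either, which these files cannot separate. The replicate block ended no call of a named copy or family and added 15 calls of 12 named copies, and the filter set by edgeR changed no count by more than 1.5 times.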
